A study of Mus musculus with 21 samples.

Results

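Rnf20 is the ubiquitin ligase that places a single ubiquitin on histone H2B, and the modified histone, H2Bub1, is known for lying over the bodies of transcribed genes. Fbxl19 belongs to the F-box proteins and carries a CXXC domain, which recognises unmethylated CpG, and the title of the series names it as a factor that brings Rnf20 to CpG islands. The peaks described here are the Rnf20 peaks that lie in an H2Bub1 domain of embryonic stem (ES) cells although no Fbxl19 peak touches them. They are the places where ligase and product were listed together without the proposed recruiter.

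These peaks were picked from 4 deposited lists: a peak of the Rnf20 list on chromosomes 1 to 19 was kept if it overlapped an ES H2Bub1 domain by at least 1 bp and overlapped no Fbxl19 peak of either clone. The rule found 1022 of the 8211 Rnf20 peaks on these chromosomes (12.4%), out of 8606 in the whole list. They lay in 516 of the 2896 ES domains there (17.8%), called host domains below. A further 1170 Rnf20 peaks lay in ES domains and did overlap Fbxl19, and these served as the main comparison. Outside ES domains, 829 Rnf20 peaks without Fbxl19 lay in a domain of another H2Bub1 list and 3010 in none. The remaining 2180 overlapped Fbxl19 outside ES domains.

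All samples were chromatin of J1, a mouse ES cell line kept pluripotent in medium with leukemia inhibitory factor, studied by chromatin immunoprecipitation and sequencing. Rnf20 was pulled down with streptavidin from 1 sample of J1 cells containing BirA, a biotin ligase. Fbxl19 with a flag-biotin tag was pulled down in the same way from 2 samples of a clone that overexpressed it more than 5-fold (OE-high) and from 2 samples of a clone below the endogenous level (OE-low, labelled as containing BirA). H2Bub1 was precipitated with an antibody from 3 samples of unmodified ES cells, 2 of knockdown (KD) ES cells, in which Fbxl19 was reduced, 3 of the OE-high clone, 2 of differentiated cells and 2 of KD differentiated cells. Input DNA made up the other 4 of the 21 samples. The labels of both differentiated groups give day 4, and no label describes how the knockdown was made or how much Fbxl19 was left. Each overexpression state is a single selected clone, so clone and Fbxl19 level cannot be told apart.

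The values are lists of peaks on the mm9 build, with 1 combined list per group, so no difference could be judged by replicate spread, and none carries a p-value. Percentages carry exact Clopper-Pearson 95% intervals. These cover counting error only, and they are too narrow where several peaks share a host domain. Depth per sample is unknown. The lists differ in size, from 1090 domains over 15.6 Mb in knockdown differentiated cells and 1813 over 41.9 Mb in knockdown ES cells to 2937 over 57.4 Mb in ES cells, 5125 over 156 Mb in differentiated cells and 7216 over 246 Mb in OE-high cells. Differences are therefore taken between peaks or domains within the same list, and counts from several lists set side by side are descriptions. No mm9 annotation was used here, so positions carry no gene names and no sequences are shown.

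Membership rests on an overlap of 1 bp, and the nearest cases on both sides of that limit were close to each other. The peaks at chr6:67217830-67219044, chr3:123210345-123210950 and chr3:153574918-153575581 were kept with gaps of 3, 5 and 24 bp to the nearest Fbxl19 peak. The ES-domain peaks at chr5:110792734-110793146, chr17:6266941-6267459 and chr1:77493732-77493914 were left out for overlaps of 4, 10 and 11 bp. Most peaks without Fbxl19 were much farther away. The median gap to an Fbxl19 peak was 13972 bp, with quartiles of 2407 and 78603 bp, and 145 of the 1022 (14.2%, interval 12.1 to 16.5) were within 1 kb. At the other end, 224 (21.9%, interval 19.4 to 24.6) were at least 100 kb away.

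Rnf20 peaks without Fbxl19 had higher scores inside ES domains than outside, though not as high as those with Fbxl19. The authors' Rnf20 score had a median of 73.0 (quartiles 57.7 and 116) in the peaks without Fbxl19 in ES domains, against 90.2 (62.3 and 137) with Fbxl19 there. Without Fbxl19 and outside ES domains the medians were 61.7 where another H2Bub1 list had a domain and 59.9 where none had. With Fbxl19 outside ES domains the median was 74.9. For the 4 sets first named, peak length followed the same order, with medians of 446, 498, 344 and 311 bp. The ranges between quartiles overlapped, and these scores rank peaks within a single library.

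The 5 highest-scoring peaks without Fbxl19 were of 2 kinds. The highest, at chr8:44374317-44379135 (score 2765), was 4819 bp long and lay in a 20-kb domain with 11 such peaks. Next came chr16:11143984-11144423 (score 1895), 440 bp long in a domain of 0.800 kb. The peak at chr18:35021217-35025692 (score 1851) lay deep in a 214-kb domain, 90745 bp from its nearest end, that was absent at this position from all 4 other H2Bub1 lists. At chr18:38745960-38750056 (score 1656) the peak was in a 14.4-kb domain, and all 4 other lists had a domain there. The fifth, chr16:57391212-57391979 (score 1541), nearly filled a domain of 0.800 kb. All 4 other lists repeated that domain with the same ends on the 200-bp grid of these lists. Long peaks in long domains and narrow peaks in narrow domains thus stood side by side at the top of the list.

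Peaks without Fbxl19 lay at domain ends less often than those with Fbxl19, and least often in hosts that hold Fbxl19 elsewhere. In domains of at least 5 kb, the midpoint lay within 1 kb of an end for 112 of 796 peaks without Fbxl19 (14.1%, interval 11.7 to 16.7) and for 421 of 975 with Fbxl19 (43.2%, interval 40.0 to 46.4). The difference was -29.1 percentage points (interval -33.1 to -25). Over domains of any length the shares were 28.5% (interval 25.7 to 31.3) and 49.9% (interval 47.0 to 52.8), with a background of 39.9% over all 2192 Rnf20 peaks in ES domains. Median distance to the nearest end in domains of at least 5 kb was 7036 bp without Fbxl19 and 1527 bp with it. In domains of 20 kb or more the shares were 7.10% (interval 5.12 to 9.55) and 29.4% (interval 25.8 to 33.2). The share without Fbxl19 differed by host. In hosts of 5 to 20 kb it was 41.3% (interval 32.4 to 50.6) where the host held no Fbxl19 and 19.6% (interval 12.7 to 28.2) where it held Fbxl19 elsewhere, beside 65.4% of the peaks that overlapped Fbxl19. In hosts of 20 kb or more it was 20.4% (interval 10.6 to 33.5) and 5.70% (interval 3.85 to 8.08). The ends used here belong to the list that also chose the peaks. The rule did not use position in the domain as such. It does remove Rnf20 peaks that touch Fbxl19, so where Fbxl19 lies near an end it removes peaks there. The part of this removal in the shares was not tested.

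**Figure D1:**
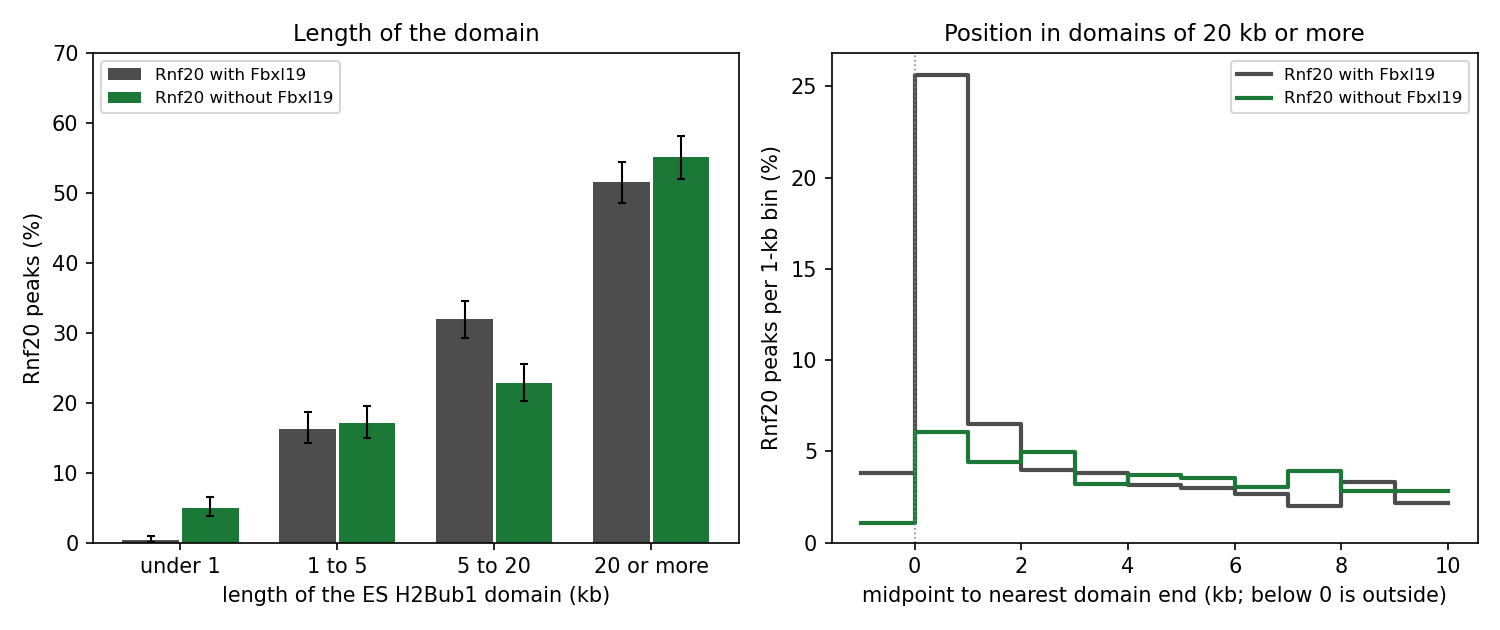
Left, share of Rnf20 peaks (y, percent) by length of the ES domain (x, kb), with 95% exact intervals as error bars. Right, share of peaks per 1-kb bin (y, percent) against the distance of the midpoint to the nearest domain end (x, kb, shown up to 10 kb) in domains of 20 kb or more. Peaks with Fbxl19 (grey) crowd the first kilobase inside the end, and those without (green) spread through the domain. Domains under 1 kb hold 4.99% of the peaks without Fbxl19 and 0.342% of those with it.

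Host domains were long and fell into a set with Fbxl19 elsewhere and a set with none. Median length was 12400 bp over the 516 hosts, 10600 bp over the 608 ES domains whose Rnf20 peaks all overlapped Fbxl19, and 6200 bp over the 1772 without Rnf20. An Fbxl19 peak lay somewhere in 287 hosts (55.6%, interval 51.2 to 60.0), against 56.0% (interval 53.7 to 58.4) of the ES domains without Rnf20. Over all ES domains the share was 65.1%. That share includes the 608 domains chosen for Rnf20 peaks that overlap Fbxl19, of which 606 held Fbxl19. These 287 hosts held 653 of the peaks (63.9%, interval 60.9 to 66.8). The other 229 hosts, with 369 peaks, had no Fbxl19 peak of either clone. Hosts with Fbxl19 had a median length of 31000 bp and hosts without it 3200 bp, with nearly equal ES domain scores of 10.2 and 10.1. A long domain has more room for any peak, so domain length moves with this split, and results are given within length classes below.

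Knockdown of Fbxl19 in ES cells asks whether H2Bub1 depends on Fbxl19. Over hosts of all lengths together, Rnf20 peaks without Fbxl19 were in a knockdown domain about as often as those with it, but length classes differed. Of the 1022 peaks, 631 (61.7%, interval 58.7 to 64.7) lay in a knockdown ES domain, against 716 of the 1170 with Fbxl19 (61.2%, interval 58.3 to 64.0). Over all Rnf20 peaks in ES domains the share was 61.5%, over all Rnf20 peaks on these chromosomes 18.7%, and 52.5% of all ES domains overlapped a knockdown domain. The difference of 0.545 points had an interval of -3.60 to 4.68, which leaves room for a few points in either direction. The length classes differed in sign. In hosts of 1 to 5 kb the share was 36.6% against 48.7% with Fbxl19 (difference -12.1, interval -22.3 to -1.59). In hosts of 5 to 20 kb it was 48.5% against 60.9% (difference -12.4, interval -20.6 to -3.97). In hosts of 20 kb or more it was 74.6% against 65.4% (difference 9.15, interval 3.77 to 14.5). The higher share in the longest hosts moved with 2 chromosomes. On chromosomes 4 and 8 together it was 84.2% (interval 78.7 to 88.7) against 65.1% with Fbxl19, and on the other chromosomes 68.4% (interval 63.2 to 73.3) against 65.5%. Without chromosomes 4 and 8, over hosts of all lengths, the difference was -5.48 points (interval -10.2 to -0.706), and without hosts that hold 6 or more of the peaks it was -5.63 (interval -10.3 to -0.975).

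In the OE-high list, which covers the most sequence, 816 of the peaks (79.8%, interval 77.3 to 82.3) lay in a domain, against 1062 with Fbxl19 (90.8%, interval 89.0 to 92.4). The background was 85.7% over Rnf20 peaks in ES domains, 46.8% over all Rnf20 peaks and 90.0% over all ES domains. The difference of -10.9 points (interval -14.0 to -7.91) was -22.1 in hosts of 1 to 5 kb, -8.64 in hosts of 5 to 20 kb and -4.15 in hosts of 20 kb or more. When at least 50% of the peak had to lie inside the OE-high domain it was -2.22 (interval -5.73 to 1.26), and with the H2Bub1 lists cut to the same number of top-scoring domains it was -2.90 (interval -6.90 to 1.12).

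The 4-day differentiated list was where the 2 kinds of Rnf20 peak stood farthest apart. There, 490 of the peaks without Fbxl19 (47.9%, interval 44.8 to 51.1) lay in a domain of differentiated cells, against 872 of those with Fbxl19 (74.5%, interval 71.9 to 77.0). The background was 62.1% over Rnf20 peaks in ES domains, 30.8% over all Rnf20 peaks and 75.8% over all ES domains. The difference was -26.6 points (interval -30.6 to -22.5). It was -40.3 (interval -49.5 to -30.1) in hosts of 1 to 5 kb, -29.7 (interval -37.3 to -21.8) in hosts of 5 to 20 kb and -17.3 (interval -22.8 to -11.6) in hosts of 20 kb or more. By Rnf20 score, it went from -16.9 points in the lowest of 4 score classes (bounded by the quartiles of the whole list) to -35.5 in the highest. On each of the 19 chromosomes the share without Fbxl19 was the lower one, by the least on chromosome 17 (80.4% against 81.9%). In the knockdown ES list the rounded share without Fbxl19 was lower on 9 chromosomes and higher on 9. On chromosome 17 both shares rounded to 74.5%. With at least 50% of the peak inside the differentiated domain the difference was -13.8 points (interval -18.0 to -9.58), and with lists of the same number of domains -7.06 (interval -10.7 to -3.38).

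**Figure D2:**
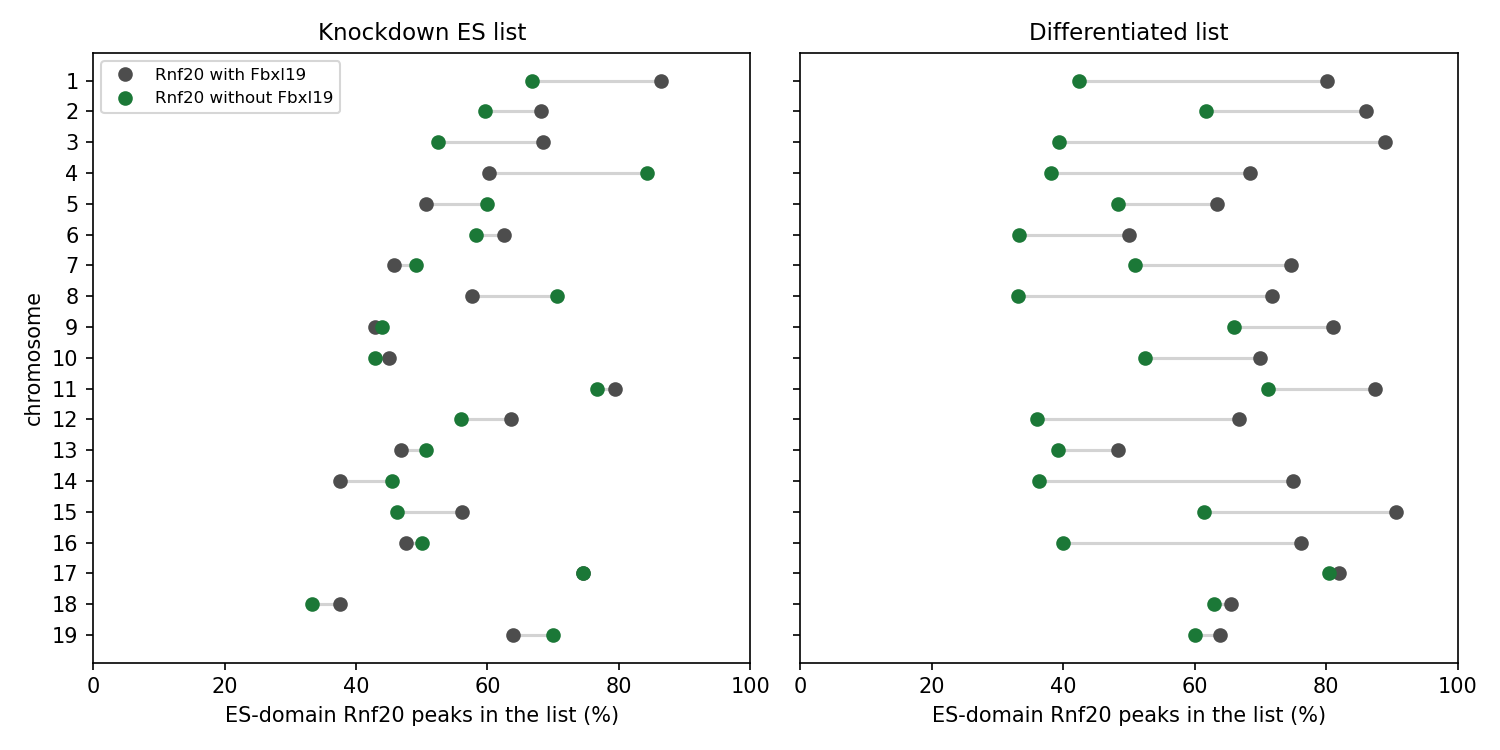
Share of ES-domain Rnf20 peaks (x, percent) that lie in a knockdown ES domain (left) and in a differentiated domain (right), by chromosome (y), for peaks with Fbxl19 (grey) and without (green). In the differentiated list the green point is to the left on all 19 chromosomes. In the knockdown list, by rounded shares, it is to the left on 9, to the right on 9 and level on chromosome 17.

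In differentiated knockdown cells, the shortest list, 278 of the peaks without Fbxl19 (27.2%, interval 24.5 to 30.0) and 356 of those with it (30.4%, interval 27.8 to 33.2) lay in a domain, against 28.9% over all Rnf20 peaks in ES domains, 9.18% over all Rnf20 peaks and 28.3% of all ES domains. The difference was -3.23 points (interval -7.07 to 0.643). By length it was -7.99 (interval -16.6 to 0.785) in hosts of 1 to 5 kb, -13.6 (interval -20.5 to -6.34) in hosts of 5 to 20 kb and 1.12 (interval -4.35 to 6.60) in hosts of 20 kb or more. The interval lay below 0 under 5 alternatives: without chromosome 8 (-7.43, interval -11.3 to -3.47), without hosts of 6 or more peaks (-6.37), with 1 peak per host (-6.36), with no Fbxl19 within 1 kb (-5.80) and without chromosomes 4 and 8 (-5.01). With at least 50% of the peak inside it was 1.19 (interval -2.53 to 4.93).

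Shares also differed with the presence of Fbxl19 elsewhere in the host domain. Of the 369 peaks in hosts without Fbxl19, 85 (23.0%, interval 18.8 to 27.7) lay in a differentiated domain, against 405 of the 653 in hosts with Fbxl19 (62.0%, interval 58.2 to 65.8). In the knockdown ES list the shares were 39.8% (interval 34.8 to 45.0) and 74.1% (interval 70.6 to 77.4). The second exceeded the 61.2% of Rnf20 peaks that overlapped Fbxl19 by 12.9 points (interval 8.41 to 17.3). The peaks that overlapped Fbxl19 lay in shorter hosts, with a median of 21100 bp per peak against 60200 bp. The part of host length in this excess was not tested. In hosts of 1 to 5 kb the 2 sets were at 24 of 32 peaks (interval 56.6 to 88.5%) and 93 of 191 (48.7%). In hosts of 5 to 20 kb the 2 sets were at 60.7% and 60.9%. In hosts of 20 kb or more they were at 77.0% and 65.4%, in the length class where chromosomes 4 and 8 stood apart. In OE-high cells the shares were 66.7% and 87.3%, and in knockdown differentiated cells 14.1% and 34.6%. Within hosts of 5 to 20 kb, the differentiated list had 27.3% (interval 19.6 to 36.1) of the peaks in hosts without Fbxl19 and 79.5% (interval 70.8 to 86.5) of those with it. In hosts of 20 kb or more these were 27.8% (interval 16.5 to 41.6) and 56.6% (interval 52.1 to 60.9), and in the knockdown ES list 51.9% (interval 37.8 to 65.7) and 77.0% (interval 73.1 to 80.6). For the longest hosts, the intervals of the difference reached 0 in the OE-high list (-23.6 to 1.37) and in the knockdown differentiated list (-24.3 to 0.169). Peaks that share a host are counted singly in these shares. Counted by host, with any overlap of the host, the differentiated list had 60.3% of 58 hosts without Fbxl19 at 5 to 20 kb. With Fbxl19 it had 88.6% of 70. At 20 kb or more it had 53.6% of 28 hosts without Fbxl19 and 86.8% of 190 with it.

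**Figure D3:**
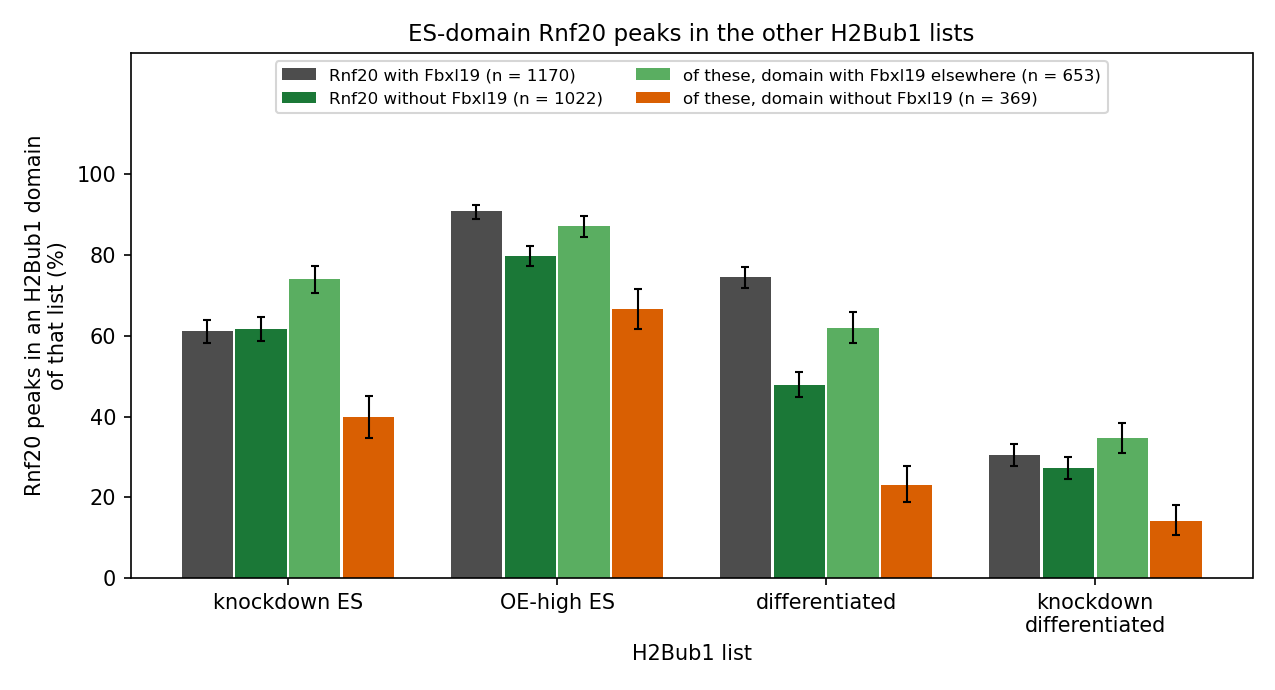
Share of ES-domain Rnf20 peaks (y, percent) that lie in a domain of each other H2Bub1 list (x), for peaks with Fbxl19 (grey), all peaks without Fbxl19 (dark green), and the latter split by whether the host domain holds Fbxl19 elsewhere (light green) or not (orange). Error bars are exact 95% intervals for counting error. Grey and dark green bars are level in the knockdown ES list (61.2% and 61.7%), where length classes differed in sign. They are apart in the differentiated list (74.5% and 47.9%), and the orange bar is the lowest in each list.

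Distance to the nearest Fbxl19 peak, in the same domain or not, gave shares that stepped down in all 4 lists. Within 1 kb of Fbxl19, 73.8% of the peaks (interval 65.8 to 80.7) were in a differentiated domain, beside 74.5% of the peaks that overlapped Fbxl19. From 1 to 10 kb it was 65.1%, from 10 to 100 kb 45.3%, and at 100 kb or more 11.2% (interval 7.35 to 16). In knockdown ES cells the same steps gave 74.5%, 69.8%, 62.4% and 41.1%. The OE-high list gave 91.7%, 89.5%, 80.8% and 57.1%, and the knockdown differentiated list 42.8%, 33.0%, 26.3% and 10.3%. Host length did not fall step by step along this series, with medians of 31600, 38800, 59900 and 4800 bp, so the last step goes with much shorter domains and the first 3 do not.

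**Figure D4:**
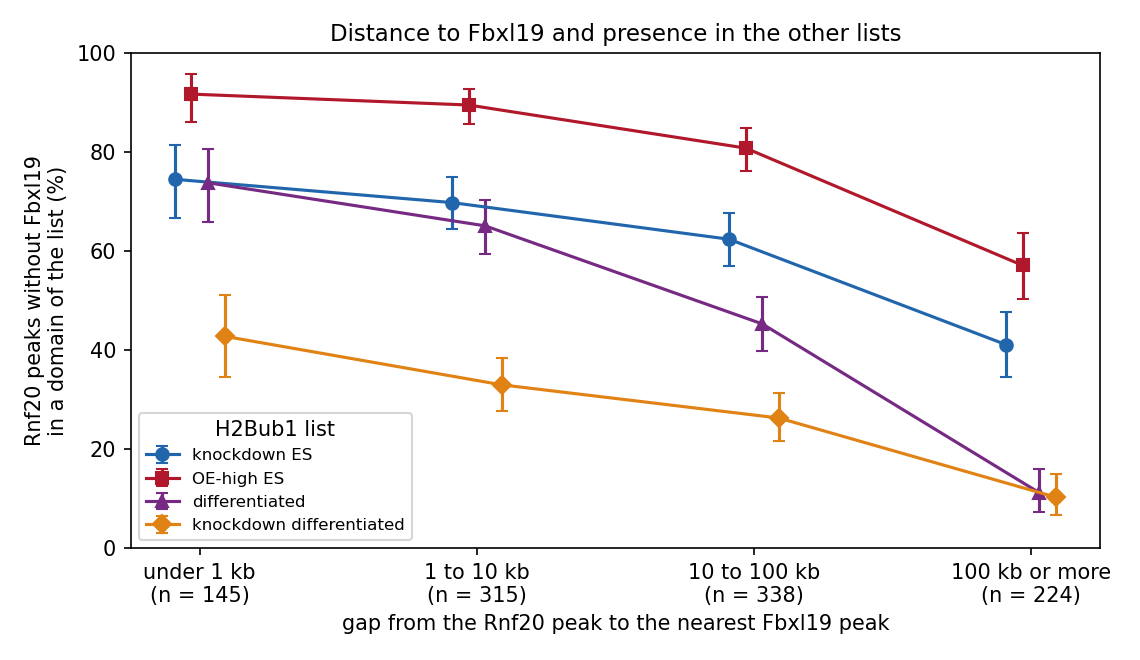
Share of Rnf20 peaks without Fbxl19 (y, percent) in a domain of each of the 4 other H2Bub1 lists, by the gap to the nearest Fbxl19 peak (x, 4 classes with their numbers of peaks). Error bars are exact 95% intervals. Each line goes down from left to right, that of the differentiated list from 73.8% to 11.2%.

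Where a peak was missing from another list, the manner of the loss differed between the host kinds. In hosts without Fbxl19, 284 peaks were outside differentiated domains, and for 271 of them no differentiated domain touched the host at all. In hosts with Fbxl19, 248 peaks were outside, and for 131 of these (52.8%) the host was still touched by a differentiated domain that stopped short of the peak. Among peaks that overlapped Fbxl19 this held for 127 of 298 (42.6%). Median host length per peak was 60200 bp in hosts with Fbxl19 and 4800 bp in hosts without. A long host has more room to be touched, and the part of length in this contrast was not tested. Seen by domain, 82 of the 229 hosts without Fbxl19 overlapped a differentiated domain (35.8%, interval 29.6 to 42.4), against 251 of the 287 with Fbxl19 (87.5%, interval 83.1 to 91.1). Among ES domains that hold no Fbxl19, hosts were less often in the differentiated list than the 779 domains without any Rnf20 peak (64.6%, interval 61.1 to 67.9), a difference of -28.8 points (interval -35.8 to -21.3). It was -34.0 (interval -43.8 to -22.8) at 1 to 5 kb, -15.9 (interval -30.6 to -2.09) at 5 to 20 kb and -6.68 (interval -29.2 to 15.6) at 20 kb or more. The OE-high list gave 63.3% for these hosts and 81.4% for the domains without Rnf20, a difference of -18.1 points (interval -25.2 to -11.2). It was -25.5 (interval -36.7 to -14.2) at 1 to 5 kb, -2.98 (interval -14.7 to 5.27) at 5 to 20 kb and 3.66 (interval -16.3 to 18.2) at 20 kb or more. In the knockdown ES list the same domains gave 45.0% and 39.7%, a difference of 5.31 points (interval -2.14 to 12.8) whose sign varied with length. It was 49.3 under 1 kb, -5.51 (interval -15.5 to 5.67) at 1 to 5 kb, -3.90 (interval -18.6 to 11) at 5 to 20 kb and 13.3 (interval -9.98 to 34.4) at 20 kb or more.

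Over the 4 other lists together, 166 peaks (16.2%, interval 14.0 to 18.6) were in a domain of every list, against 22.5% (interval 20.1 to 25) of those with Fbxl19, and 122 (11.9%, interval 10 to 14.1) were in none, against 5.04% (interval 3.86 to 6.46). The most frequent pattern, with 182 peaks (17.8%, against 26.7% of those with Fbxl19), was presence in all but the knockdown differentiated list. Leading peaks named for the patterns are those with the highest score in a host of at least 2 kb, and shorter hosts held higher-scoring peaks in some patterns. For the 182 this was chr11:97489041-97491417 (score 682), 410 bp from Fbxl19. Another 166 were in the knockdown ES and OE-high lists but in neither differentiated list, a pattern that held 16.2% of peaks without Fbxl19 and 7.86% of those with it, led by the chromosome 8 peak with score 2765. A further 128 peaks (12.5%, against 8.38% of those with Fbxl19) were in the OE-high list alone. They were led by chr13:8761089-8763484 (score 853), which lay 106468 bp from Fbxl19 in a 5.40-kb domain.

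Smaller patterns had leading peaks of their own, under the same limit on host length. The OE-high and differentiated lists, but neither knockdown list, held 99 peaks (9.69%, against 18.5% of those with Fbxl19). They were led by chr4:141094141-141095084 (score 272), whose midpoint lay just outside the end of a 94.0-kb domain. Peaks in all lists but knockdown ES numbered 33 (3.23%, against 5.73% with Fbxl19), led by chr9:114469386-114471177 (score 234). The second highest score among the 1022, 1895, belongs to the same pattern in a domain of 0.800 kb. Another 41 (4.01%, against 2.05% with Fbxl19) were in the knockdown ES list alone. They were led by chr6:3150609-3151600 (score 1481), where the ES and knockdown domains had the same end on the 200-bp grid of these lists. Both knockdown lists, and neither of the others, held 30 peaks (2.94%, against 0.940% with Fbxl19). They were led by chr6:47712950-47714572 (score 563) in a 41.4-kb domain with 8 Rnf20 peaks that overlap Fbxl19. A pattern of 39 peaks (3.82%, against 0.855% with Fbxl19), absent from the differentiated list alone, was led by chr8:20011457-20017047 (score 500), in the fullest host domain of all.

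The peaks were crowded. Of the 516 hosts, 337 held a single peak and 152 held 2 to 5, and the 27 hosts with 6 or more held 267 peaks (26.1%). Chromosome 8 had 136 peaks and chromosome 4 had 134, and by chromosome the share of Rnf20 peaks that met the rule ran from 8.10% on chromosome 15 to 18.9% on chromosome 4, around a median of 11.4%. The fullest host, chr8:19852800-20038799 (186 kb, ES score 35.8), held 39 peaks with scores of 50.6 to 500 and 7 Rnf20 peaks with Fbxl19. Its neighbour chr8:19679600-19803199 (124 kb) held 24 with scores of 51.4 to 215. All 63 peaks of these 2 domains lay in domains of both knockdown lists. The OE-high list held 37 and 9 of them and the differentiated list 13 and 9. Without these 2 hosts, the share of chromosome 8 peaks in a knockdown differentiated domain was 19.2% (interval 10.9 to 30.1) instead of 56.6% (interval 47.9 to 65.1). The third, chr13:44824200-45113199 (289 kb), held 17 peaks, and each lay in a domain of all 4 other lists.

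**Figure D5:**
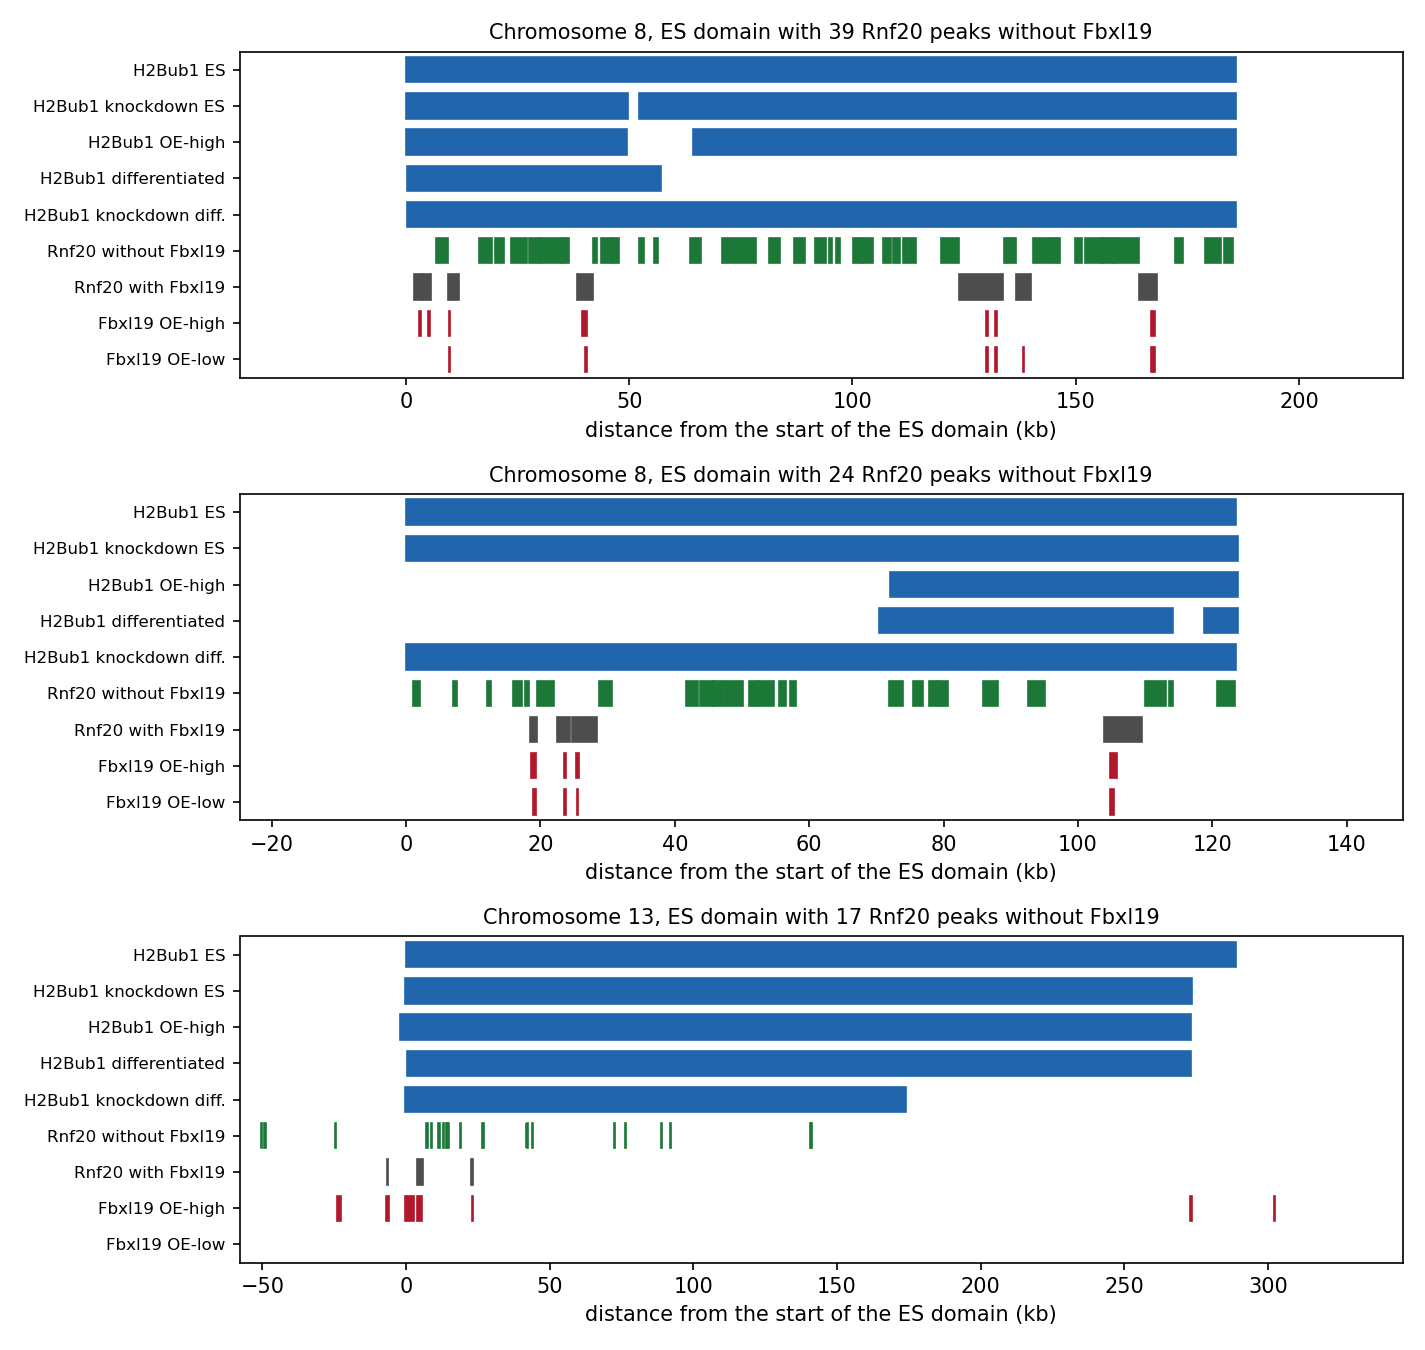
The 3 ES domains with the most Rnf20 peaks without Fbxl19, drawn to scale along the distance from the domain start (x, kb), with 1 row (y) for each list: H2Bub1 domains in blue, Rnf20 peaks without Fbxl19 in green and with Fbxl19 in grey, Fbxl19 peaks in red, also where they lie outside the ES domain. On chromosome 8 both knockdown lists cover the ES domain almost throughout and the differentiated list covers 30.5% and 39.3% of it.

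Crowded hosts on chromosome 4 were near neighbours. Between 145163800 and 147170399 there were 8 hosts with 6 or more peaks, 64 peaks in all. Each of the 8 overlapped a domain in the knockdown ES and OE-high lists, 4 overlapped a differentiated domain and none a knockdown differentiated domain. Over all 218 hosts of 20 kb or more, 72.0% overlapped a knockdown ES, 95.9% an OE-high, 82.6% a differentiated and 42.2% a knockdown differentiated domain. Over all 134 peaks of chromosome 4, 84.3% (interval 77.0 to 90.0) were in the knockdown ES list, 38.1% (interval 29.8 to 46.8) in the differentiated list and 6.72% (interval 3.12 to 12.4) in the knockdown differentiated list. For the 133 ES-domain peaks with Fbxl19 on chromosome 4 these shares were 60.2%, 68.4% and 27.1%. This stretch was chosen after the values were seen.

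The shortest hosts formed a class of their own. Of the 107 ES domains under 1 kb, 49 were hosts, and none of the 49 held an Fbxl19 peak. The rule keeps Fbxl19 off the Rnf20 peak, which here covered a median of 53.8% of the host. Of the 54 domains under 1 kb without Rnf20, only 4 held Fbxl19. The 51 peaks of the 49 hosts had a median Rnf20 score of 170, against 73.0 over all peaks of the rule. Midpoints of peak and domain were a median of 34.5 bp apart, with domain ends set on a 200-bp grid. ES domain scores of these hosts had a median of 27.7, against 10.6 for the 54 domains under 1 kb without Rnf20. In the knockdown ES list 32 of the 49 were present (65.3%, interval 50.4 to 78.3), against 8 of the 50 domains under 1 kb with neither Rnf20 nor Fbxl19, a difference of 49.3 points (interval 29.4 to 65.0). In the differentiated list it went the other way, with 8 hosts (16.3%, interval 7.32 to 29.7) against 26 of the 50 (52.0%), a difference of -35.7 points (interval -52.6 to -15.9). The OE-high list had 20 hosts (40.8%) against 54.0%, a difference of -13.2 (interval -33.0 to 7.78), and the knockdown differentiated list 21 (42.9%) against 24.0%, a difference of 18.9 (interval -1.09 to 37.4). Peak and domain scores, domain length and the lack of Fbxl19, which the rule partly sets, move together in this class. Their part in the result was not tested, and no peak list of input DNA or of a pull-down without tagged protein was analysed here.

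Host length differed little between ES and knockdown ES cells where both lists had the domain. Where a host overlapped a knockdown ES domain, the length of the knockdown domain with the largest overlap was divided by the ES length. This ratio had a median of 1.00 (quartiles 0.848 and 1.20) over 309 hosts. Other ES domains had similar ratios, 1.01 where all Rnf20 peaks overlapped Fbxl19 and 1.06 without Rnf20. All ratios here use that 1 domain, also where it runs beyond the host or where the host overlaps several. In OE-high cells the median ratio was 1.06 over 424 hosts, against 1.68 for the ES domains whose Rnf20 peaks all overlapped Fbxl19 and 3.21 for those without Rnf20. In differentiated cells it was 0.977 over 333 hosts, against 1.29 and 2.35. Hosts with Fbxl19 had medians of 1.00 (OE-high) and 0.914 (differentiated, 251 hosts), and hosts without it 1.33 and 1.56 (82 hosts). In differentiated knockdown cells 176 hosts were present at a median ratio of 0.713, with 0.484 in hosts with Fbxl19 and 1.00 in hosts without. Median ES length was 12400 bp over hosts, 10600 bp over domains with Rnf20 only at Fbxl19 and 6200 bp over those without Rnf20. It was 31000 bp in hosts with Fbxl19 and 3200 bp in hosts without. The part of ES length in these ratios was not tested. The longest host, chr17:6219200-6674199 (455 kb), held a single peak of the rule, 209089 bp from the nearest end, which was in an OE-high and a differentiated domain and in neither knockdown list. In the second longest, chr14:7108800-7442399 (334 kb), the single peak had the same pattern.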

How the data were processed

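The authors aligned and called the lists before deposit. Per the submitters' processing notes, the tools were BWA 0.5.9-r16 and MACS and the build was mm9, without saying which list each made. Track names of the 5 H2Bub1 lists end in BCP, per the file headers, and carry 60M for ES, 46M for knockdown ES, 46M for OE-high, 36M for differentiated and 41M for knockdown differentiated cells, whose meaning is not stated. Each score is a value the authors deposited for a peak or domain, by a formula that no label or header states. Peak names in the Rnf20 list begin with MACS. Labels name no list for the third H2Bub1 sample of the OE-high clone, so whether the combined list includes it is unknown. The OE-high Fbxl19 list was matched to its samples by its name.

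Positions are counted from 1. H2Bub1 domains start and end on a 200-bp grid in over 99% of lines, so equal ends are equal only to that step. Fbxl19 lists were read as counted from 1 and the others from 0. A peak was assigned to the domain with the largest overlap. Intervals of a difference combine both exact intervals in squares. The overlap code was tested on 2000 simulated peaks and recovered 800 of 800 planted overlaps. Named regions are the 5 highest scores, the 3 fullest and 3 longest hosts, 3 peaks on either side of the limit, and the highest score in a host of at least 2 kb for each pattern with 10 or more peaks. Peaks and classes were chosen with earlier results of these data known. No genes were assigned, since no mm9 annotation was used here. Alternatives were 10 set at the outset and 2 added after seeing the data. Replicate values were not analysed here. Calculations used Python 3.11.15, NumPy 2.4.6, pandas 2.3.3, SciPy 1.17.1 and matplotlib 3.10.9.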

Additional observations from a re-analysis of the deposited data

How the results depend on the processing

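No paired analysis was possible because each group has 1 combined list with no values per replicate, and for the same reason no replicate could be left out. Of 195 alternative values for 18 results, 132 stayed within the interval of the reported value (for the count, within 1.5 times), 63 did not, and no difference whose interval lay on one side of 0 changed sign. Differences are Rnf20 peaks without minus with Fbxl19, in percentage points. The difference for the differentiated list was negative under all 12 alternatives (-31.9 to -7.06), as was that for the OE-high list (-14.9 to -2.22). The knockdown ES difference ran from -5.63 to 3.50 and so took either sign.

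With 1 peak per host domain, 516 peaks were left, the median score was 81.2, 55.2% were in knockdown ES and 56.4% in differentiated domains, 55.6% had Fbxl19 elsewhere in the host and 42.2% lay within 1 kb of an end. The differences were then -4.99 (knockdown ES), -14.9 (OE-high), -22.4 (differentiated) and -17.1 (near an end). The top 50% of the Rnf20 list by score gave 591 peaks, a median score of 104, 42.1% in differentiated domains (difference -31.9), 59.6% with Fbxl19 in the host, 32.0% near an end (difference -16.4), and 26.7% of hosts without Fbxl19 in the differentiated list. With no Fbxl19 peak within 1 kb, 43.7% were in differentiated domains (difference -30.9) and 58.2% had Fbxl19 in the host.

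ES domains of at least 2 kb gave 83.7% in OE-high domains (difference -7.31), 69.3% with Fbxl19 in the host, 22.2% near an end (difference -26.8) and a median host length of 19200 bp, and hosts without Fbxl19 were in the OE-high list in 76.9% and in the differentiated list in 45.5%. ES domains scoring above their list's median gave 74.6% in knockdown ES, 82.7% in OE-high and 35.5% in knockdown differentiated domains, 67.9% with Fbxl19 in the host and a median host length of 7900 bp, and hosts without Fbxl19 were in those lists in 60.7%, 71.9% and 28.1%. With each other H2Bub1 list limited to its 1090 top-scoring domains, the shares were 46.6% (knockdown ES), 31.8% (OE-high, difference -2.90) and 21.2% (differentiated, difference -7.06), and for hosts without Fbxl19 33.2%, 14.8% and 13.1%. With at least 50% of the peak inside the other domain, the differences were -2.22 (OE-high), -13.8 (differentiated) and 1.19 (knockdown differentiated).

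Without chromosome 8, 22.7% were in knockdown differentiated domains (difference -7.43). The next alternatives were chosen after seeing the data. Without hosts holding 6 or more peaks, the shares were 54.0% (knockdown ES, difference -5.63), 53.1% (differentiated) and 24.4% (knockdown differentiated), with 56.3% having Fbxl19 in the host and 37.0% near an end (difference -15.7). Without chromosomes 4 and 8 they were 56.1% (knockdown ES, difference -5.48) and 52.4% (differentiated), with 57.0% having Fbxl19 in the host and 34.4% near an end (difference -15.7). The causes of these shifts were not tested. Depth per library is unknown, so absence from a list cannot be told apart from a domain below the caller's threshold.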
